A study of Mus musculus with 9 samples.

Results

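Semaphorins, ephrins and their receptors, the plexins and Eph receptors, were followed in endothelial cells sorted from the meninges of mice with and without a tumor. Members were taken by gene symbol: every symbol of the table starting with Sema or Plxn followed by a digit or a letter from a to d, and every symbol made of Epha, Ephb, Efna or Efnb and digits. This gave 52 of the listed genes, namely 20 semaphorins, 9 plexins, 8 ephrins, 14 Eph receptors and Plxna4os1, an antisense RNA of the Plxna4 locus. The other 51 are protein-coding genes.

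Semaphorins are secreted or membrane-bound guidance cues, and most signal through plexins, which act on the cytoskeleton. Class 3 semaphorins are secreted and mostly need a neuropilin as co-receptor, while Plxnd1 binds Sema3e directly and restrains vessel growth. Ephrins are tied to the membrane and signal both ways with Eph receptors on touching cells, and the pair of Efnb2 on arteries and Ephb4 on veins is known for keeping these vessels apart and for shaping lymphatic valves.

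The libraries came from meningeal lymphatic endothelial cells (MLECs) of male mice, C57BL/6 by the study's methods and 10 weeks old by the labels and injected at 7 to 8 weeks, with no engineered allele named for these samples. Control mice received PBS, GL261 mice the glioma line GL261 and B16 mice the melanoma line B16, and by the labels meninges were collected about 3 weeks after GL261 cells and about 2 weeks after B16 cells. The study's text instead gives a shared time of 2 weeks for GL261, B16 and PBS, and its methods a range of 2 to 3 weeks, so tumor line and time cannot be told apart if the labels hold. The labels place the injection in the cisterna magna and the methods place it under the dura. Each group had 3 biological replicates, each a pool of 6 mice from which 10 cells were sorted, so that a library is a small draw from several animals. The labels and the study's methods name a stain for CD31, CD45 and LYVE-1. Its results text names a gate on PDPN in place of LYVE-1, and which of these defined the cells is not settled. GL261 and B16 libraries together are called tumor-associated below, as in the study.

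Values are FPKM, fragments scaled by transcript length and by the mapped fragments of the library, and can therefore be compared between genes per length. Depth differed between the groups: relative to the shallowest library, Control replicate 3, it was 1.37 and 1.59 in Control replicates 1 and 2, 6.36, 6.77 and 3.73 in GL261 replicates 1 to 3, and 1.69, 3.14 and 3.81 in B16 replicates 1 to 3. Every control library was thus shallower than every tumor-associated library, and depth and tumor cannot be told apart by design. Members with an FPKM above 0 numbered 16, 19 and 19 in the control libraries, 26, 25 and 23 in the GL261 libraries and 22, 20 and 25 in the B16 libraries. Tbp, a gene of the basic transcription machinery needed by all cells, had 9.06 to 16.7 FPKM in tumor-associated samples but was listed at 0 in Control replicates 1 and 3, so a value of 0 does not mean that a transcript was lacking.

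Of the 52 members, 35 were above 0 somewhere, 8 of them in all 9 libraries, and 17 were listed at 0 throughout. Testing required 1 FPKM or more in 3 or more libraries, which 21 members reached, among them Plxna4os1, 8 semaphorins, 4 plexins, 6 ephrins and 2 Eph receptors. All 3 genes that mark the family here, Plxnd1, Efnb2 and Ephb4, were among them. Differences are of log2(FPKM + 1), where the added 1 shrinks those of low genes, and were tested with limma over all 9955 genes that met the condition.

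Between tumor-associated and control MLECs, 2 of the 21 tested members, the semaphorins Sema6d and Sema3f, passed limma's adjusted threshold of 0.05, both higher in tumor-associated libraries, beside 391 of 9955 genes (3.93%). The same 2 members were higher in each tumor-associated library than in each control library, as were 605 genes (6.08%), and Sema6a was lower in each, as were 442 genes (4.44%). In bulk samples, fewer cells of a type and less RNA per cell cannot be told apart. The median difference of all genes tested was 0.20, and it was 0.05 after rescaling each library to the same sum. Differences relative to this median are therefore given beside calls of members and of the co-receptor Nrp1. Tbp, needed by all cells, also passed as higher, at a log2 difference of 3.44 (limma's adjusted p = 0.0101), or 3.24 above this median. The part of weaker detection in the controls in these calls was not tested.

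Sema3f, a secreted class 3 semaphorin that binds Nrp2 and repels axons and endothelial cells, had 6.52, 15.8 and 21.9 FPKM in Control replicates 1 to 3, 46.6, 34.6 and 42.3 in GL261 replicates 1 to 3 and 60.0, 60.4 and 86.4 in B16 replicates 1 to 3. The order of the groups was complete: each GL261 library lay above each control library and below each B16 library. The step from GL261 to B16 did not pass limma's threshold, and 663 of 9955 genes (6.66%) were likewise lower in GL261 than in B16 without overlap. The log2 difference of tumor-associated from control MLECs was 1.92 (standard error 0.49, limma's adjusted p = 0.0464), or 1.71 above the median of all genes, and the mean FPKM was 3.74 times as high. The call was lost in 15 of 18 alternative settings, among them most of those that left out a single library, as given further below.

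Sema3d, another secreted class 3 semaphorin, known for guiding endothelial cells, went the other way, with 5.75, 24.2 and 31.3 FPKM in the controls, 4.98, 3.29 and 0.105 in the GL261 libraries and 5.81, 1.13 and 2.31 in the B16 libraries. Control replicates 2 and 3 were far above every tumor-associated library, while Control replicate 1 lay just under B16 replicate 1. Its log2 difference was -2.41 (standard error 0.82), which did not pass the test over all genes (limma's adjusted p = 0.131). Set beside each other in the same library, Sema3f minus Sema3d on the log2(FPKM + 1) scale was 0.16, -0.58 and -0.49 in the controls against 2.99 to 5.29 with a tumor, a pair chosen after the values were seen.

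Sema3a, the class 3 semaphorin that binds Nrp1 and is known for its part in lymphatic valves, had 7.98, 7.77 and 3.59 FPKM in the controls, 10.5, 9.05 and 19.7 in GL261 and 24.4, 2.77 and 9.44 in B16 libraries. B16 spanned the whole range of the other groups, and the log2 difference of 0.70 did not pass the test (limma's adjusted p = 0.640). Of the remaining class 3 genes, Sema3c was at 5.36 FPKM in B16 replicate 1 and Sema3g at 0.881 in B16 replicate 3, both listed at 0 elsewhere, and Sema3b and Sema3e were listed at 0 in all 9 libraries.

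Class 6 semaphorins span the membrane and bind A-type plexins. Sema6d had 0, 0.192 and 9.31 FPKM in the controls, 25.1, 26.5 and 10.8 in the GL261 libraries and 13.6, 44.0 and 29.6 in the B16 libraries. It was nearly absent from the values of Control replicates 1 and 2, and Control replicate 3 came close to the lowest tumor-associated library, GL261 replicate 3. The log2 difference was 3.35 (standard error 0.81, limma's adjusted p = 0.0367), or 3.15 above the median of all genes. Among the controls only replicate 3 reached 1 FPKM, so Sema6d met the condition for testing through the tumor-associated libraries. Its call was lost in 11 of 18 alternative settings, 1 of them without the filter on low values (limma's adjusted p = 0.0759).

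Sema6a, a ligand of Plxna2 and Plxna4, had 16, 19.6 and 37.1 FPKM in the controls, 14.3, 10.6 and 13.9 in GL261 and 11.6, 13.0 and 14.1 in B16 libraries. All 6 tumor-associated libraries lay under the lowest control library, though by a small margin, and the log2 difference of -0.78 did not pass the test (limma's adjusted p = 0.423). Sema6d was lower than Sema6a in each of the 3 control libraries and higher in 5 of the 6 tumor-associated libraries, GL261 replicate 3 being the exception, again a pair chosen after the values were seen.

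Sema6b reached 1.73, 6.68 and 0 FPKM in the controls, 0.112, 1.26 and 3.58 in GL261 and 6.96, 3.92 and 1.86 in B16 libraries, and Sema6c had no value above 0.0643. The groups overlapped for Sema6b throughout (log2 difference 0.26, limma's adjusted p = 0.907).

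The class 4 semaphorins, membrane proteins that signal through B-type plexins and immune receptors, were low. Sema4b was at 5.04 FPKM in Control replicate 2, 0.0598 in GL261 replicate 3, and 1.71 and 4.39 in B16 replicates 1 and 3, and was listed at 0 in the other 5 libraries. Sema4a reached 8.33 FPKM in B16 replicate 1 and at most 0.542 elsewhere, Sema4d, the ligand of Plxnb1, reached 1.26 and Sema4c 0.51, and Sema4f and Sema4g were listed at 0 in all 9 libraries, as were both class 5 genes, Sema5a and Sema5b. Sema7a, a GPI-anchored ligand of integrins and Plxnc1, had 2.19, 1.54 and 0.271 FPKM in the controls, 2.36, 5.26 and 0 in GL261 and 1.6, 0.868 and 3.93 in B16 libraries. Neither Sema4b nor Sema7a differed beyond the spread of its libraries, with log2 differences of -0.21 and 0.38 (limma's adjusted p = 0.918 and 0.831).

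**Figure D1:**
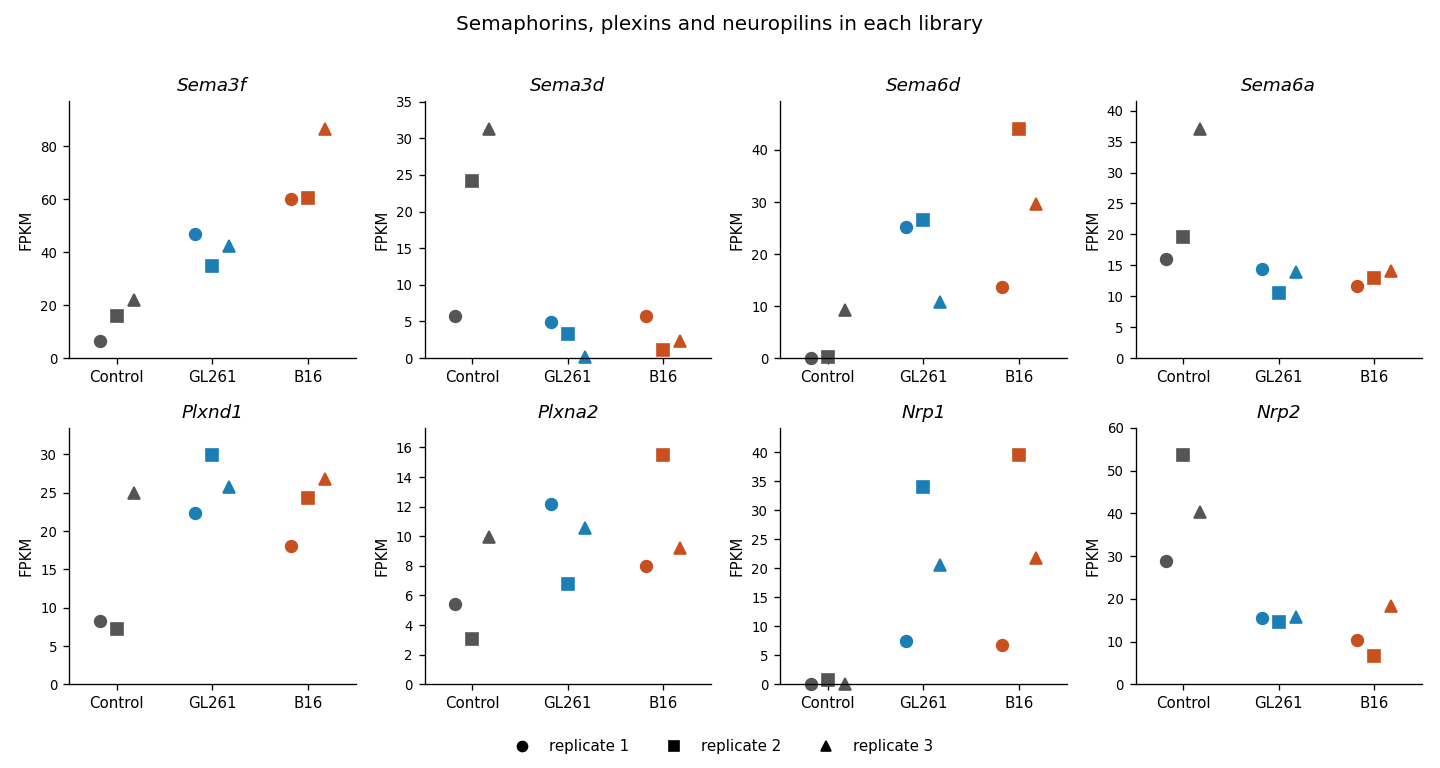
FPKM (vertical axes, each starting at 0) of 4 semaphorins, 2 plexins and both neuropilins in each of the 3 Control, 3 GL261 and 3 B16 libraries, with 1 point per library and its shape giving the replicate. Sema3f, Sema6d and Nrp1 lie higher in every tumor-associated library than in every control library, and Sema6a and Nrp2 lie lower.

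Among the receptors, Plxnd1 was the most abundant plexin, with 8.21, 7.28 and 25.0 FPKM in the controls, 22.3, 29.9 and 25.8 in GL261 and 18.0, 24.3 and 26.8 in B16 libraries. The tumor-associated libraries were close together and Control replicate 3 lay among them, whereas Control replicates 1 and 2 lay well under all of them. The log2 difference was 1.00 (standard error 0.52, limma's adjusted p = 0.323) and did not pass the test. Its direct ligand Sema3e was listed at 0 in all 9 libraries, so receptor and ligand were not read together in these sorted cells.

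Plxna2, a receptor of class 3 and class 6 semaphorins, had 5.45, 3.06 and 9.97 FPKM in the controls, 12.2, 6.80 and 10.6 in GL261 and 8.02, 15.5 and 9.18 in B16 libraries. Its groups overlapped, at a log2 difference of 0.74 (limma's adjusted p = 0.543). Plxnb2, which binds class 4 semaphorins, was listed at 0 in B16 replicate 1 and had 0.0968, 2.91 and 0.529 FPKM in the controls, 2.71, 4.11 and 1.49 in GL261 and 8.39 and 2.54 in the other B16 libraries (log2 difference 0.86, limma's adjusted p = 0.588).

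Plxna4 had 0.0486, 2.46 and 0 FPKM in the controls, 0.104, 1.17 and 0.0177 in GL261 and 0, 3.88 and 0.682 in B16 libraries. The antisense Plxna4os1 had 4.01, 0 and 0 FPKM in the controls, 0.949, 1.1 and 0 in GL261 and 7.30, 8.07 and 0 in B16 libraries. Both overlapped between groups (log2 differences 0.10 and 0.60, limma's adjusted p = 0.955 and 0.771), and both are uncertain, since no source used here says that counting kept the strand. Plxna1, the receptor known for Sema6d, had 0.543 and 0.262 FPKM in GL261 replicates 1 and 2, 0.885 in B16 replicate 3 and 0 elsewhere. Plxnb1 did not exceed 0.494 FPKM and Plxnc1 had values only in the GL261 libraries, up to 1.42, while Plxna3 and Plxnb3 were listed at 0 in all 9.

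**Figure D2:**
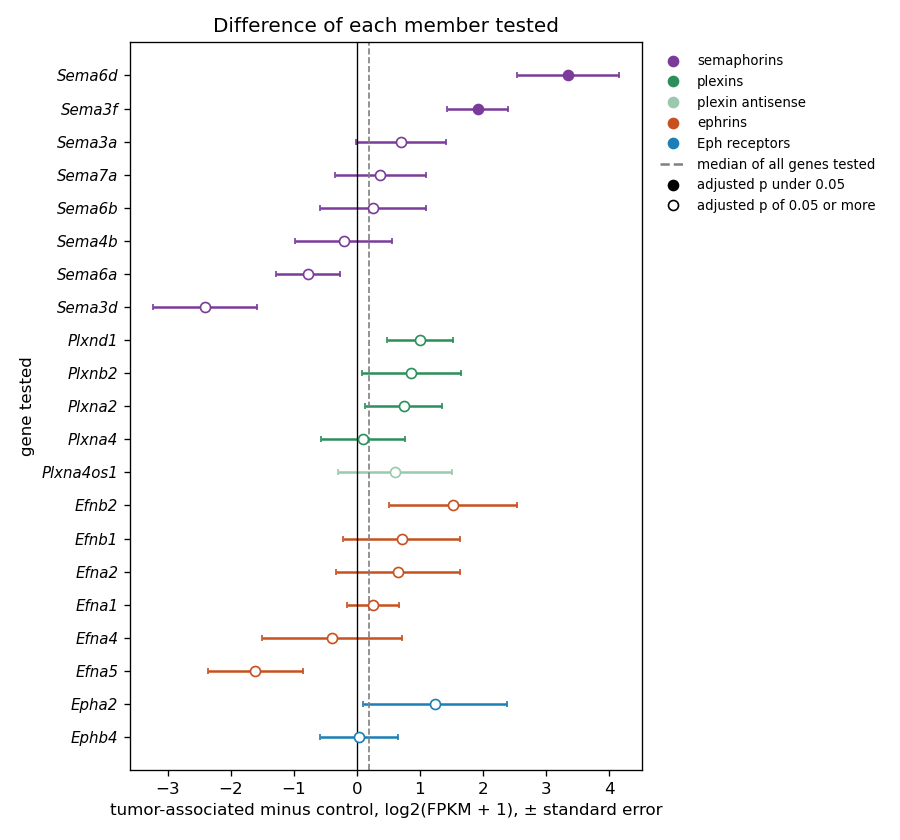
Tumor-associated minus control difference on the log2(FPKM + 1) scale (horizontal axis) for the 21 members tested, with bars for the standard error and a dashed line at the median of all 9955 genes, 0.20. Filled points, Sema6d at 3.35 and Sema3f at 1.92, passed limma's adjusted threshold of 0.05, and Sema3d at -2.41 was the lowest.

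Class 3 semaphorins reach plexins through the neuropilins, and these 2 co-receptors differed in opposite directions. Nrp1, the partner of Sema3a and of VEGF, had 0.106, 0.819 and 0 FPKM in the controls, 7.45, 34.0 and 20.6 in GL261 and 6.85, 39.5 and 21.8 in B16 libraries. The control values were all under 1 and the tumor-associated values all well above, so that Nrp1 met the condition for testing through the tumor-associated libraries alone, at a log2 difference of 3.91 (standard error 0.74, limma's adjusted p = 0.0106), or 3.71 above the median of all genes. Nrp2, the partner of Sema3f and a marker of lymphatic endothelium, had 28.8, 53.6 and 40.4 FPKM in the controls, 15.5, 14.6 and 15.7 in GL261 and 10.3, 6.65 and 18.3 in B16 libraries. Every tumor-associated library lay under every control library, yet the log2 difference of -1.55 did not pass the test (limma's adjusted p = 0.116).

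The list of neuropilins and other co-receptors held 9 genes, of which 6 were tested, 1 passed as higher (Nrp1) and 0 as lower, beside 289 higher and 102 lower of all 9955 genes, with a median difference of 0.76 beside 0.20 over all genes. Cd72, a receptor of Sema4d on immune cells, had 20.8 FPKM in B16 replicate 1 and at most 5.11 in the others (log2 difference 0.84, limma's adjusted p = 0.693).

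Ephrins were led by Efna1, the most abundant member in all 9 libraries. It had 139.8, 264 and 282 FPKM in the controls, 146, 206 and 163 in GL261 and 375, 467 and 359.9 in B16 libraries. GL261 lay within the control range, and every B16 library lay above every library of the other groups. The log2 difference of tumor-associated from control MLECs was 0.25 (standard error 0.41, limma's adjusted p = 0.793). Efna1 has been known as a gene induced by TNF in endothelium and as a ligand of Epha2.

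Efnb2, the arterial ephrin, had 0, 4.57 and 6.05 FPKM in the controls, 17.1, 8.00 and 0.325 in GL261 and 10.4, 36.2 and 8.76 in B16 libraries. Each B16 library was above the control libraries, while GL261 replicate 3 fell among them, and the log2 difference of tumor-associated from control MLECs was 1.53 (standard error 1.02, limma's adjusted p = 0.433). Efnb1 had 0, 1.5 and 5.80 FPKM in the controls, 0.961, 4.96 and 5.35 in GL261 and 0, 10.6 and 5.43 in B16 libraries, with overlapping groups.

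Efna5 had 3.78, 9.64 and 3.00 FPKM in the controls, 2.52, 0.0247 and 0 in GL261 and 3.55, 0 and 2.15 in B16 libraries. Only B16 replicate 1 exceeded the lowest control library, and the log2 difference of -1.61 did not pass the test (limma's adjusted p = 0.273). Efna2 was at 9.02 and 16.8 FPKM in B16 replicates 1 and 2 and at most 1.74 elsewhere. Efna4 was at 18.8 FPKM in Control replicate 3, 4.73 and 0.169 in GL261 replicates 2 and 3 and 10.7 in B16 replicate 2, and was listed at 0 in the other 5 libraries. The log2 differences of Efnb1, Efna2 and Efna4 were 0.71, 0.65 and -0.39 (limma's adjusted p = 0.732, 0.773 and 0.894). Efna3 and Efnb3 had values in 2 GL261 libraries each, up to 1.37 and 3.07 FPKM.

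Of the 14 Eph receptors, 9 were listed at 0 in all 9 libraries: Epha3, Epha5, Epha6, Epha7, Epha8, Epha10, Ephb2, Ephb3 and Ephb6. Ephb4, the venous and lymphatic receptor of Efnb2, had 39.3, 12 and 20.7 FPKM in the controls, 19.7, 16.4 and 8.86 in GL261 and 37.6, 18.3 and 54.9 in B16 libraries. No group stood apart from the others, and the log2 difference was 0.03 (standard error 0.62, limma's adjusted p = 0.986).

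Epha2 had 0.164, 25.8 and 0 FPKM in the controls, 7.29, 8.38 and 0.120 in GL261 and 9.62, 18.0 and 8.63 in B16 libraries. It was highest in a single control library and near 0 in the other controls, so its log2 difference of 1.24 carried a standard error of 1.15 (limma's adjusted p = 0.595). Ephb1 was at 11.7 FPKM in Control replicate 2 and did not exceed 0.955 elsewhere, Epha4 was at 5.33 in B16 replicate 3 and did not exceed 0.639 elsewhere, and Epha1 reached 1.28. Set side by side in the same library, Efnb2 was lower than Ephb4 in all 3 control libraries and in 5 of the 6 tumor-associated libraries, B16 replicate 2 being the exception, and Efna1 was higher than Epha2 in all 9.

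**Figure D3:**
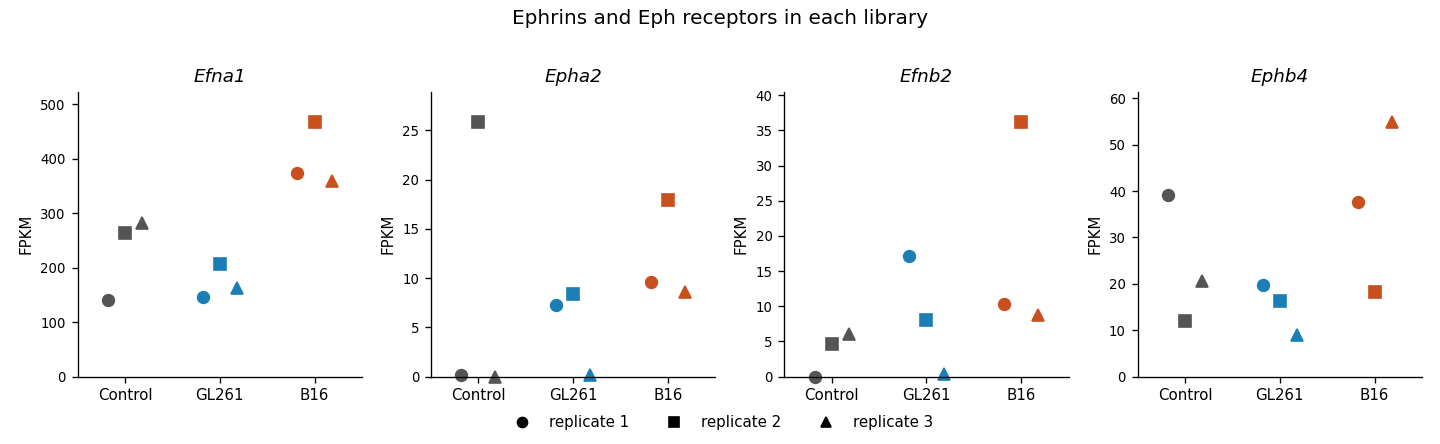
FPKM (vertical axes, each starting at 0) of the pairs Efna1 with Epha2 and Efnb2 with Ephb4 in each of the 3 Control, 3 GL261 and 3 B16 libraries, with 1 point per library and its shape giving the replicate. The B16 values of Efna1, 359.9 to 467, lie above all other libraries, and the groups of Ephb4 overlap.

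Each tumor was also set against the same 3 control libraries, which both comparisons share. In GL261 against control, 0 of the 21 tested members passed limma's adjusted threshold and 4 had an unadjusted p under 0.05, beside 347 of 9955 genes (3.49%) that passed and 1687 with an unadjusted p under 0.05. In B16 against control, 0 members passed and 4 had an unadjusted p under 0.05, beside 210 of 9955 genes (2.11%) that passed and 1493 with an unadjusted p under 0.05. For Sema3f the log2 differences were 1.56 with GL261 and 2.27 with B16 (limma's adjusted p = 0.158 and 0.0553), and for Sema6d they were 3.14 and 3.56 (limma's adjusted p = 0.113 and 0.0886). Sema3d differed by -2.53 and -2.28 (limma's adjusted p = 0.208 and 0.303). Nrp1 passed in both, at 3.88 and 3.94 (limma's adjusted p = 0.0371 and 0.0457), or 3.64 and 3.74 above the median of all genes. For GL261 against control, the adjusted p of Nrp1 from limma was 0.0709 and 0.0740 without Control replicates 1 and 3, 0.0701, 0.174 and 0.121 without GL261 replicates 1 to 3 and 0.0625 without B16 replicate 3. For B16 against control, the adjusted p of Nrp1 from limma was 0.0834 and 0.0826 without Control replicates 1 and 3, 0.0628, 0.0753 and 0.0714 without GL261 replicates 1 to 3 and 0.161 and 0.163 without B16 replicates 2 and 3. Both calls of Nrp1 were also lost without the filter on low values, which Nrp1 met through the tumor-associated libraries alone (limma's adjusted p = 0.0664 for GL261 and 0.0882 for B16). Over the 18 alternatives, these calls of Nrp1 were lost in 10 for GL261 and in 12 for B16, so they depended on the processing and on which libraries were included.

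GL261 was compared with B16 directly to ask where the tumors differed. With limma, 0 of the 21 tested members passed and 1, Efna1, had an unadjusted p under 0.05, beside 1 of 9955 genes (0.01%) that passed and 548 with an unadjusted p under 0.05. Efna1 was lower in GL261 than in B16 MLECs, at a log2 difference of -1.22 (standard error 0.33, limma's adjusted p = 0.381), which did not pass. Groups did not overlap for 3 tested members that were lower in GL261 (Efna1, Epha2 and Sema3f), beside 663 of 9955 genes (6.66%), and for 0 members that were higher, beside 710 genes (7.13%). The difference of Sema3f was -0.72 and that of Epha2 -1.49 (limma's adjusted p = 1.0 for both).

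These calls rested on few libraries. Without Control replicates 1 and 2, each in turn, the adjusted p of Sema3f from limma was 0.130 and 0.0631, without GL261 replicates 1 to 3 it was 0.0827, 0.0623 and 0.0619, and without B16 replicates 1 to 3 it was 0.0683, 0.0825 and 0.0976. Only without Control replicate 3 did the call of Sema3f hold, with an adjusted p of 0.0374 from limma. For Sema6d it was 0.116 without Control replicate 1, 0.0977 without Control replicate 2, 0.0759 without B16 replicate 2, 0.0802 without B16 replicate 3, 0.0807 without GL261 replicate 1 and 0.0812 without GL261 replicate 2, and the call held without the other 3 libraries. With the relative depth in the model, the differences were 2.53 for Sema3f and 3.52 for Sema6d, and neither these nor Nrp1 passed (limma's adjusted p = 0.282, 0.397 and 0.395).

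Downstream of plexins, 20 of the 23 listed effectors were tested, 0 passed limma's threshold in either direction and 5 had an unadjusted p under 0.05, as did 1889 of all 9955 genes, with a median difference of 0.02 beside 0.20 over all genes. Dpysl2, which encodes the collapsin response mediator CRMP2, had 121, 63.4 and 86.5 FPKM in the controls, 16, 32.6 and 32.0 in GL261 and 28.1, 44.8 and 35.6 in B16 libraries. All tumor-associated libraries lay under all control libraries, at a log2 difference of -1.50 (limma's adjusted p = 0.0758). Rnd3, known to bind Plxnb2, had 8.19, 5.03 and 11.4 FPKM in the controls, 0, 1.09 and 5.44 in GL261, and it was listed at 0 in all B16 samples, with a log2 difference of -2.52 (limma's adjusted p = 0.0892). Plcg1, a phospholipase downstream of receptor kinases, had 0.863, 0.123 and 5.68 FPKM in the controls, 5.41, 9.90 and 9.96 in GL261 and 17.7, 3.45 and 3.72 in B16 libraries (log2 difference 1.77, limma's adjusted p = 0.256).

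Of 21 effectors of Eph receptors and ephrins, 20 were matched by symbol and 12 were tested, of which 0 passed with limma and 2 had an unadjusted p under 0.05 beside the same 1889 of 9955 genes, with a median difference of 0.27. Abl2, a tyrosine kinase that reshapes the actin cytoskeleton, had 0, 0 and 0.0808 FPKM in the controls, 2.40, 1.78 and 3.47 in GL261 and 1.29, 2.10 and 2.29 in B16 libraries. No control value reached the lowest value of a GL261 or B16 sample, at a log2 difference of 1.62, which did not pass (limma's adjusted p = 0.118). Abl2 met the condition for testing through the tumor-associated libraries alone. Vav3, known to be bound by active Eph receptors, was at 1.40, 16.4 and 26.6 FPKM in controls against 2.16 to 7.16 with a tumor, and Nck2, an adaptor, was at 0.717, 1.23 and 0 in controls against 0 to 7.38 with a tumor. Their log2 differences were -1.24 and 1.06 (limma's adjusted p = 0.436 and 0.488).

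Of 20 genes of other guidance families, 4 were tested, of which 0 passed with limma and 3 had an unadjusted p under 0.05 beside the same 1889 of 9955 genes, with a median difference of -1.26. Ntn1, the secreted netrin, had 6.35, 20.1 and 20.03 FPKM in the controls, 1.77, 2.39 and 2.68 in GL261 and 2.39, 2.30 and 2.52 in B16 libraries. Its receptor Unc5b, known in endothelium, had 21.5, 27.0 and 21.6 FPKM in the controls, 5.91, 2.79 and 3.44 in GL261 and 15.3, 3.18 and 0.5 in B16 libraries. Ligand and receptor were both lower in every tumor-associated library than in every control library, as were 442 of 9955 genes (4.44%). Their log2 differences were -2.16 and -2.34, and neither passed (limma's adjusted p = 0.0957 and 0.112). Rgmb, a membrane-bound guidance molecule, was at 0, 10.7 and 0 FPKM in controls against 4.86 to 16.8 with a tumor (log2 difference 2.04, limma's adjusted p = 0.235).

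Markers of cell types were read beside these results. Of 9 lymphatic markers, 8 were tested and 3 passed as lower in tumor-associated MLECs, beside 102 of all 9955 genes. Over the 18 alternatives, these calls were lost in 2 for Mmrn1, 4 for Flt4 and 10 for Reln. Their FPKM, led by Lyve1, summed to 3283, 3181 and 2757 in the control libraries, 1435, 1130.5 and 2616 in GL261 and 2877, 1336 and 1759.8 in B16 libraries. All 9 lymphatic markers, Prox1, Flt4, Pdpn and Lyve1 among them, had a value above 0 in every library, but most were lower with a tumor. Of the 8 tested, 7 had a negative and 1 a positive difference, with a median of -1.67 beside 0.20 over all genes. In every tumor-associated library 5 were lower than in every control library, as were 442 of 9955 genes (4.44%). Prox1 had a mean of 32.3 FPKM in controls and 4.93 with a tumor (log2 difference -2.79, limma's adjusted p = 0.0509). For Pdpn the means were 278 and 123 FPKM (-1.48, limma's adjusted p = 0.235). Of 10 markers of blood endothelium, all were tested and 7 passed as higher, beside 289 of all 9955 genes, with calls lost in 0 (Flt1) to 12 (Plvap) of the 18 alternatives. Their FPKM, led by Plvap over all libraries and by Cldn5 in the controls, summed to 2346, 3124 and 2689 in the control libraries, 5184, 5892 and 4794 in GL261 and 5364, 8206.5 and 5996 in B16 libraries. Less abundant markers differed more than these sums. Mean FPKM in controls and with a tumor was 0.5 and 112 for Flt1 and 5.81 and 383 for Cd34. For Esam it was 13.2 and 522, and for Vwf 0.672 and 35.2. Their log2 differences were 6.18, 6.38, 6.03 and 4.23. Of the 10 markers, 9 had a positive and 1 a negative difference, with a median of 3.51 beside 0.20 over all genes. Cldn5 went the other way, with a log2 difference of -0.63 (limma's adjusted p = 0.211), and passed as lower in GL261 against control (-1.01, limma's adjusted p = 0.0215). That call of Cldn5 was lost in 6 of the 18 alternatives. Among these were the fits without Control replicate 3 and without GL261 replicates 1 and 2 (limma's adjusted p = 0.0644, 0.0891 and 0.105). Nrp2 is itself among the lymphatic markers. Both lists held genes that passed, as Sema3f, Sema6d and Nrp1 did, and their part in the result was not tested.

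Arterial and venous markers were read beside Efnb2 and Ephb4. The 6 arterial markers, led by Dll4 over all libraries and by Gja4 in the controls, with Gja5 listed at 0 throughout, summed to 220.2, 60.4 and 90.2 FPKM in the controls, 27.5, 49.4 and 86.9 in GL261 and 57.0, 144 and 93.7 in B16 libraries. Gja4 and Dll4 had log2 differences of -3.97 and 0.77, and neither passed the test (limma's adjusted p = 0.0964 and 0.598). The 4 venous markers, led by Ackr1 over all libraries, summed to 57.1, 124 and 74.2 FPKM in the controls, 660.4, 257 and 745 in GL261 and 122, 44.2 and 245 in B16 libraries. Ackr1 alone gave 543, 168 and 636 FPKM of the venous sums in GL261 and was listed at 0 in every control and in B16 replicates 1 and 2, so the GL261 sums are mostly a reading of 1 gene. Nr2f2 was lower in every tumor-associated library than in every control, at a log2 difference of -0.94 (limma's adjusted p = 0.224). In tumor-associated against control, Selp was the only venous marker that passed, at 3.22 (limma's adjusted p = 0.0443), or 3.02 above the median of all genes. Its call was lost in 16 of 18 alternatives. In GL261 against control, Ackr1 passed at 8.60 (limma's adjusted p = 0.0113), or 8.37 above that median. Ackr1 met the condition for testing through tumor-associated libraries alone, and this call was lost in 4 of 18 alternatives. Efnb2 was highest in B16 replicate 2, which had the next to highest arterial sum, 144. It was listed at 0 in Control replicate 1, which had the highest arterial sum, and the part of these markers in the result was not tested.

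Markers of other cell types were read as well. Ptprc, which encodes the CD45 of the stain, was listed at 0 in all 9 libraries, and Lyz2, a gene of myeloid cells, had 0, 145 and 60.6 FPKM in the controls, 2.33, 324 and 14.8 in GL261 and 13.8, 11.4 and 0 in B16 libraries. Cd52, another leukocyte gene, was at 56.8 FPKM in Control replicate 3 and 71.8 in GL261 replicate 2 and was listed at 0 elsewhere. Tyrobp, an adaptor of myeloid receptors, had 0, 0 and 71.2 FPKM in the controls, 10.5, 43.5 and 2.49 in GL261 and 34.7, 0 and 0 in B16 libraries, and the part of leukocytes in the result was not tested. Fibroblast markers were 5 genes led by Dcn in the controls, with Lum at 0 throughout. They summed to 22.0, 47.5 and 16 FPKM in the controls, at most 1.3 in GL261 and at most 3.85 in B16 libraries. Dcn passed as lower, but met the condition for testing through the control libraries alone (mean FPKM of 27.5 there and 0.0754 with a tumor). Of the 14 alternatives that tested Dcn, its call was lost in 2. Sema3d was also highest in control libraries, and the part of fibroblast RNA in it was not tested. The 5 mural markers summed to 567 FPKM in Control replicate 1, led by Acta2, and at most 11.4 elsewhere. Of 7 neural and glial markers, led by Olig2, Gfap, Snap25, Syt1 and Sox2 were listed at 0 throughout and the list summed to at most 3.04 FPKM, and of 6 melanoma markers, led by Pmel, Mlana, Tyr and Tyrp1 were listed at 0 throughout and the list summed to at most 4.07, in GL261 replicate 2.

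Without Control replicate 1, the library with mural markers, 0 members and 259 genes passed in tumor-associated against control MLECs with limma, a setting singled out after the values were seen, though planned among those that leave out each library. This library was not alone in that. Also 0 members passed without Control replicate 2 (444 genes), B16 replicates 2 and 3 (299 and 247 genes) or GL261 replicates 1 and 2 (260 and 245 genes), each in turn.

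Some members lie on the same stretch of chromosome, and genes between them were not looked for. On mouse build NCBIM37 (mm9), Sema3f lies on the minus strand at chr9:107583833-107612806 and Sema3b on the same strand at chr9:107500005-107511560, 72272 bases apart, and Sema3b was listed at 0 in all 9 libraries. Efna1 at chr3:89075655-89085064 lies near Efna3 at chr3:89117821-89126887 and Efna4 at chr3:89137312-89141950, all on the minus strand, with highest FPKM of 467, 1.37 and 18.8. Sema3d at chr5:12383166-12588943, Sema3a at chr5:13125593-13602565 and Sema3e at chr5:14025276-14256689 are all on the plus strand, with highest FPKM of 31.3, 24.4 and 0. Sema6d lies at chr2:123915705-124493506 on the plus strand, Plxnd1 at chr6:115904829-115945023 on the minus strand, Efnb2 at chr8:8617434-8661239 on the minus strand and Ephb4 at chr5:137791337-137819897 on the plus strand.

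Exon sequence had a median of 4790 bases over 19 tested members and 6328 bases over 31 members not tested, with Efna5 and Plxna4os1 left out because their symbols had no unique entry.

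Promoter windows, the 250 bases before an annotated start, were taken from RefSeq sequences of build GRCm38.p6. They were matched for 45 of the 52 members with 59 windows, and for 17 of the 21 tested members with 22 windows. Entries for Efnb3, Plxna1, Plxna4, Plxna4os1, Sema3b, Sema3f and Sema6a were missing. Windows were searched on both strands for CACCC, a box bound by KLF factors, CCGGAAG, bound by ETS factors, ACGTG, the core of hypoxia response elements, and AACAAT, bound by SOX factors. CACCC was in 45 of 59 member windows and in 17087 of all 32851 windows (52.0%), and median GC was 64.0% in member windows and 52.4% in all. ACGTG was in 11 member windows and 16.6% of all windows, CCGGAAG in 2 and 6.91%, and AACAAT in 3 and 9.42%. A match is a description of letters and not of a bound site.

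The windows of Sema6d, which passed the test, Sema3d, which was lower in tumor-associated MLECs without passing, and Efna1, the most abundant member, are shown from 5′ to 3′ on the gene's strand, with matches to these motifs on either strand in capitals. Sema6d has windows on the plus strand at chr2:124089719-124089968 and chr2:124653331-124653580, the former with 1 match to CACCC, read as GGGTG, and 2 overlapping matches to ACGTG on opposite strands within CACGTG. Sema3d has 1 window on the plus strand at chr5:12382916-12383165, with no match. Efna1 has windows on the minus strand at chr3:89280952-89281201 and chr3:89279646-89279895, with 1 and 3 matches to CACCC.
Sema6d chr2:124089719-124089968: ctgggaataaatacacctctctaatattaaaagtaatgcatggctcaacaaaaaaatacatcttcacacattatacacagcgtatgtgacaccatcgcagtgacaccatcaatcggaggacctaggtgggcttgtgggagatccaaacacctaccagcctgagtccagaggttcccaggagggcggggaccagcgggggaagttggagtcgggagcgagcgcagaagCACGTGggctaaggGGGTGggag
Sema6d chr2:124653331-124653580: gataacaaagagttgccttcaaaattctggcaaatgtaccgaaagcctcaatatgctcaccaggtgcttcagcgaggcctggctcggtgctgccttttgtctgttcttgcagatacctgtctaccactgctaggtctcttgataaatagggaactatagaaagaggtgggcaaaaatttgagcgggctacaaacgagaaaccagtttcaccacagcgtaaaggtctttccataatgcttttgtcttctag
Sema3d: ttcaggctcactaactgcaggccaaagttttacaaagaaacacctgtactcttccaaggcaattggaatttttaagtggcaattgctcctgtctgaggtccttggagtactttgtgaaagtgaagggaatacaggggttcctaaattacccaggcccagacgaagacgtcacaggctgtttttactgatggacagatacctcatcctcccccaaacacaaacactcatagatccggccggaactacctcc
Efna1 chr3:89280952-89281201: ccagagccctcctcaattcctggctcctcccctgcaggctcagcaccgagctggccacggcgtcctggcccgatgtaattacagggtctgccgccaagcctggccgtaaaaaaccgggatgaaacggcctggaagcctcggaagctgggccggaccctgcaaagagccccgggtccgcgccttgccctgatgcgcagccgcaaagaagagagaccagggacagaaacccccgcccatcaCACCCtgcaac
Efna1 chr3:89279646-89279895: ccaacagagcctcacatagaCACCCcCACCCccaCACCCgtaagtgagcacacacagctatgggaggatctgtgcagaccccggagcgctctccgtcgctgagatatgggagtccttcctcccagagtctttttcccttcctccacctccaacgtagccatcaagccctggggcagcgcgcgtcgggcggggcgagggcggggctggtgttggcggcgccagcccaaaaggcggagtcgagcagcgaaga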

How the data were processed

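RNA-seq libraries of 10 sorted cells were made from 9 pools of 6 mice, with a protocol given as Smart-seq2. The study's methods describe a poly(T) tail put on first-strand cDNA before amplification, and which protocol applies was not settled. The authors trimmed reads, aligned them to mm9 with TopHat2 2.0.12 and deposited FPKM computed with Cufflinks 2.2.1, with 1 value per gene symbol and library and no further scaling. The gene annotation and strand setting were not given in the sources used here. No read counts were used, and the counting error of a value is therefore unknown. Relative depth was recovered from low FPKM, whose ratios between libraries pile up where both rest on the same small number of fragments, and the method was tested on simulated data.

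Genes reaching 1 FPKM in 3 or more libraries were tested on log2(FPKM + 1) with limma 3.58.1 in R 4.3.3 (lmFit, eBayes with trend), with Benjamini-Hochberg adjustment over all 9955 genes. Tumor-associated against control was fitted with 2 groups, and the other 3 comparisons with 3 groups sharing their spread. The limma fit was also tested on simulated data. Tables and figures used Python 3.11.15, numpy 2.4.6, pandas 2.3.3 and matplotlib 3.10.9. Gene positions came from GENCODE M1 (NCBIM37).

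Members, effector lists and marker lists were chosen with earlier results of these data known. Every tested member was named with its values and the other members by their range. Of each effector, co-receptor and guidance list, genes past the threshold in any comparison and the 3 with the largest absolute tumor-associated difference were named. Alternatives were a pseudocount of 0.1, no filter, a mean FPKM of at least 10, rescaling each library to a sum of 1000000, quantile normalization, eBayes without trend, a block for the replicate number, a covariate for the number of genes above 0 and leaving out each library in turn. Relative depth as a covariate was added after the data were seen.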

Additional observations from a re-analysis of the deposited data

Results flagged for a closer look

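In the 6 tumor-associated libraries taken as 1 group, a lowest or highest library set apart from the others was looked for in each of the 21 tested members on the log2(FPKM + 1) scale. For Epha2, GL261 replicate 3 was set apart at the low end, with 0.120 FPKM beside 7.29 to 18.0 in the other 5 libraries, a gap of 0.707 of the whole range. Chance sets a library apart in about 1 in 20 groups, and 21 members were examined.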

How the results depend on the processing

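In tumor-associated against control MLECs, 2 members passed, and 1 did with a pseudocount of 0.1 or with eBayes without trend, 0 without the filter on low values, with each library rescaled to a sum of 1000000, with the number of detected genes as a covariate or with relative depth as a covariate, and 0 to 2 with 1 library left out. All genes that passed numbered 254 without the filter, 13 with detected genes, 9 with relative depth and 245 to 444 with 1 library left out, instead of 391. In GL261 against control, 0 to 1 members passed with 1 library left out, and all genes numbered 218 without the filter, 6 with detected genes, 2 with relative depth and 105 to 363 with 1 library left out, instead of 347. In B16 against control, 1 member passed at a mean FPKM of at least 10 and 0 to 2 with 1 library left out, and all genes numbered 135 without the filter, 17 with detected genes, 5 with relative depth and 69 to 274 with 1 library left out, instead of 210. In GL261 against B16, 2 genes passed after quantile normalization, 6 without trend and 1 to 4 with 1 library left out, instead of 1, and 0 members did in any of the 18 alternatives. With the replicate number as a block, 0 members passed in tumor-associated against control and 230 genes in GL261 against control. Deviations of the 9 pairs of libraries with the same number correlated between -0.0334 and 0.0443. Those of the 18 pairs with different numbers correlated between -0.0302 and 0.0522. Whether libraries with the same number were handled together was not tested. Relative depth as a covariate was chosen after seeing the data, and the cause of these shifts was not tested. Of 4160 single-gene values over the 4 comparisons, 0 changed direction past the threshold, 180 lost it, 20 gained it and 174 others moved in size. The 4160 include values of genes that had not passed, which cannot lose the threshold, so 180 of 4160 is not the share of calls lost. Sema3f ranged from 1.45 to 2.53, Sema6d from 2.75 to 5.12 and Sema3d from -3.36 to -1.97 in tumor-associated against control, each with its sign kept in all alternatives run. In that comparison, 8 of the 21 tested members changed sign in at least 1 alternative, among them the most abundant, Efna1.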
